A study of Mus musculus with 6 samples.

Results

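The immunoglobulin genes were examined in lung endothelial cell (EC) preparations from mice infused with angiotensin II (AngII). Every heavy chain constant gene (Ighm, Ighd, Igha, Ighe, Ighg1, Ighg2b, Ighg2c, Ighg3), every light chain constant gene (Igkc, Iglc1, Iglc2, Iglc3), the J chain gene (Jchain) and every variable (V) segment of the heavy (Ighv), kappa (Igkv) and lambda (Iglv) loci was looked up in the count tables, and those with at least 10 counts summed over the 6 libraries were kept. This gave 154 genes of the 361 annotated, out of 47729 genes in the tables, of which 18748 reached the same minimum. The 154 comprised 7 of 8 heavy chain constant genes, all 4 light chain constant genes, Jchain, 69 of 185 heavy V segments, 70 of 160 kappa V segments and all 3 lambda V segments. One kept kappa segment, Igkv4-73, is annotated as a pseudogene. Ighe was not kept, with 0, 4 and 1 counts in WT replicates 1 to 3 and 0 in each KO library, where 0 counts allow an IgE share of heavy chain constant counts of up to 0.0327%, 0.0305% and 0.0373%.

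Polyadenylated RNA was sequenced from 3 libraries of wild-type (WT) mice and 3 libraries of leene-KO mice, in which a chromosome 14 region that encodes the putative mouse homolog of the long noncoding RNA LEENE was removed by CRISPR-Cas9. Both groups were male, 14 weeks old, on the C57BL6 background and on normal chow, and both received AngII at 1000 ng/kg/min from an osmotic pump for 2 weeks, so that no library came from an uninfused animal. The study describes the deletion as present throughout the animal, not in ECs alone. The labels call the cells CD31-enriched and state that cells of 3 mice per group were pooled, whereas the study's methods describe selection with an antibody to CD144; whether 1 library is 1 mouse or a pool is not clear from these sources, and the p-values measure only the spread between libraries.

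Library totals ran from 24464324 to 35184063 counts. Mitochondrial genes held 37.4%, 38.5% and 54.5% of them in WT replicates 1 to 3 and 46.2%, 40.4% and 38.2% in KO replicates 1 to 3. All 9 EC markers examined were present, with summed levels of 1239 to 2513 CPM in WT and 1580 to 2630 CPM in KO libraries. Transcripts of alveolar type II cells were present too, at 4934, 46390 and 14404 CPM in WT replicates 1 to 3 and 36566 to 44951 CPM in KO libraries, so that WT replicate 1 held the least and WT replicate 2 the most, and none of the 5 markers passed the test. CPM here are counts scaled to library size with the trimmed mean of M values (TMM). The leene transcripts were not analysed here.

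Antibodies are made by B lymphocytes and by the plasma cells derived from them. Each B cell joins 1 V segment to the other segments of its heavy chain locus and likewise at a light chain locus, and splices the result to a constant gene. Resting mature B cells carry IgM and IgD, which come from Ighm and Ighd by alternative splicing of a shared transcript. Class switching replaces these constant genes with one for IgG, IgA or IgE, and plasma cells secrete the product in large amounts, with the J chain linking IgA and IgM into polymers. In bulk RNA of this kind, fewer cells of a type and less RNA per cell cannot be told apart.

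The germline 3′ ends of the V segments that ranked first in at least 1 library are shown because these segments carry the comparison of V usage between libraries. Each line is the last 60 coding bases of the segment, 5′ to 3′ in the sense of the gene, in GRCm38 from the GENCODE M21 transcripts, and the capitals mark the last in-frame TGT or TGC codon, which encodes the conserved cysteine that precedes the antigen-binding junction. The heavy segments lie on the minus strand of chromosome 12, at chr12:114288152-114288211 (Ighv3-6), chr12:114153180-114153239 (Ighv7-3), chr12:114583569-114583628 (Ighv1-9) and chr12:114788372-114788431 (Ighv1-26). The kappa segments lie on chromosome 6, at chr6:68631963-68632022 (Igkv10-96), chr6:68736297-68736356 (Igkv19-93), chr6:69607275-69607334 (Igkv4-55) and chr6:70216858-70216917 (Igkv8-24) on the minus strand and chr6:70699008-70699067 (Igkv3-2) on the plus strand. Iglv1 lies at chr16:19085017-19085076 on the minus strand.
Ighv3-6: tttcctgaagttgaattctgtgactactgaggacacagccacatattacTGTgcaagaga
Ighv7-3: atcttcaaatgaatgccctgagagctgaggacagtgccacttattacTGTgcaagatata
Ighv1-9: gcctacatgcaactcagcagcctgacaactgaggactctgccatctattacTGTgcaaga
Ighv1-26: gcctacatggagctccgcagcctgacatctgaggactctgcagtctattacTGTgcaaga
Igkv10-96: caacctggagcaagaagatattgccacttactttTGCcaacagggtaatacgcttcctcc
Igkv19-93: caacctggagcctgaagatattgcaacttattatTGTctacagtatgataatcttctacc
Igkv3-2: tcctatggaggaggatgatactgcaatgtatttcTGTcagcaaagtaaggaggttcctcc
Igkv4-55: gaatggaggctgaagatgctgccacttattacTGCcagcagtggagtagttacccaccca
Igkv8-24: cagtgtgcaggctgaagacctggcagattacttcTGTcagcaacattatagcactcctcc
Iglv1: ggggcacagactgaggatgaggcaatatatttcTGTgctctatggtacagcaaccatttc

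How far such related segments can be told apart by reads of 50 bases was computed from the annotated transcripts, as the share of 50-base windows of a gene found in no other gene. The constant genes and Jchain had a median of 99.7% unique windows, whereas the kept heavy V segments had a median of 79.2% and the kept kappa V segments 75.2%. Among the segments printed above, Igkv19-93 and Igkv8-24 had 100% unique windows, Ighv3-6 had 97.1%, Ighv1-26 had 51.0% and Igkv4-55 had 46.7%. The counts of the last 2 are therefore the least certain of those shown, since reads from the shared stretches could be lost or assigned to a relative.

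The lambda constant genes differ widely in this respect, and the last 120 coding bases of each are shown for that reason. The stretches lie on the minus strand at chr16:19061755-19061874 (Iglc1), chr16:19198539-19198658 (Iglc2) and chr16:19065368-19065487 (Iglc3), and capitals mark the 39 positions at which the 3 genes are not all identical.
Iglc1: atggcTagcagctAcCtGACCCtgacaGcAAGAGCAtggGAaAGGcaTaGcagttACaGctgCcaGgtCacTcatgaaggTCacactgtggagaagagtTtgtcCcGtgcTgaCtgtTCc
Iglc2: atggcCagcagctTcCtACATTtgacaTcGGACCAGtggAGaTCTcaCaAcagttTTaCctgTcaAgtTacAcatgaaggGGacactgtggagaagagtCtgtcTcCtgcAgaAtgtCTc
Iglc3: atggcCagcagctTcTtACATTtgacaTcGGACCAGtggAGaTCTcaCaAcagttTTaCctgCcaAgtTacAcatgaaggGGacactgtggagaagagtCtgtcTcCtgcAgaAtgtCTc
Over the aligned coding bases Iglc2 and Iglc3 were identical at 303 of 314 positions (96.5%), whereas Iglc1 matched Iglc2 at 74.8%. Iglc1 had 100% unique windows, Iglc2 92.3% and Iglc3 77.7%. Iglc2 shared most with Iglc3 (43 windows), and Iglc3 shared most with the gene 2010309G21Rik (47 windows). Only uniquely aligned reads were counted, so reads from shared windows could be lost, more so for Iglc3.

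Immunoglobulin transcripts were a small part of every library. The 154 genes held 7567, 16301 and 6123 counts in WT replicates 1 to 3, which is 0.0254%, 0.0463% and 0.0250% of all counts. In KO replicates 1 to 3 they held 15586, 16551 and 13622 counts, or 0.0596%, 0.0567% and 0.0487%. Most of these counts lay in constant genes, and V segments contributed only 816 to 2326 counts per library.

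After TMM scaling, the summed level of the 154 genes was 185, 479 and 287 CPM in WT and 669.9, 609 and 470 CPM in KO libraries. The groups overlapped, because WT replicate 2 lay above the lowest KO library, and the mean was 1.84 times higher in KO (317 ± 149 against 583 ± 103 CPM, SD, n = 3 each). Without WT replicate 2, the highest WT library, the ratio was 2.47, and no other library was left out for these sums. Heavy chain constant genes summed to 103, 262 and 165 CPM in WT and 394, 362 and 277 CPM in KO libraries, a ratio of 1.95 without overlap. The corresponding ratios were 1.80 for light chain constant genes, 1.72 for heavy V, 1.63 for kappa V and 2.11 for lambda V segments, and in each of these the groups overlapped. Without WT replicate 2 the lambda V ratio was 3.67, with only 38 and 40 lambda V counts in WT replicates 1 and 3.

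Gene by gene, no immunoglobulin gene passed the test. The edgeR quasi-likelihood test, adjusted by the Benjamini-Hochberg method, called 16 of the 14625 genes tested (0.109%), and none of the 71 immunoglobulin genes that passed its filter on low counts was among them. At an unadjusted p under 0.05, 19 of these 71 were higher and 1 (Igkv4-55) was lower in KO, where 5.62% of all tested genes were higher; the filter keeps genes that are high in 1 group alone, so this count is a description. DESeq2 called 6 of the 120 immunoglobulin genes to which it gave an adjusted p, all higher in KO (Ighd, Ighm, Ighg2c, Iglc3, Ighv6-6 and Igkv3-4), against 0.527% of all genes that were higher. The likelihood ratio test of edgeR called 6 higher in KO (background 0.848%), the edgeR test without its filter on low counts 3 (Ighd, Ighm and Ighg2c, background 0.333%), and limma-voom 1 (Ighd, background 0.0615%). With library totals in place of TMM the edgeR test called 4 in either direction (background 0.841%), and without WT replicate 1 or WT replicate 3 it called Ighd alone, higher in KO (background 0.0602% and 0.0529%).

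Counted over all 154 genes, with no filter beyond the count minimum, 29 genes (18.8%) had every KO library above every WT library, against 8.35% of the 18748 genes with the same minimum. No immunoglobulin gene had every KO library below every WT library, against 7.96% of all genes. The KO mean was higher for 114 genes (74.0%) and lower for 40, against 54.3% higher among all genes. With WT replicate 2 set aside, 63 genes (40.9%) had every KO library above both other WT libraries, against 20.8% of all genes. In a fit without the low-count filter, the median log2 fold change of the 154 genes was 0.85. It was 0.06 for all 26138 genes of that fit, which had at least 1 count and are a wider set than the 18748.

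**Figure D1:**
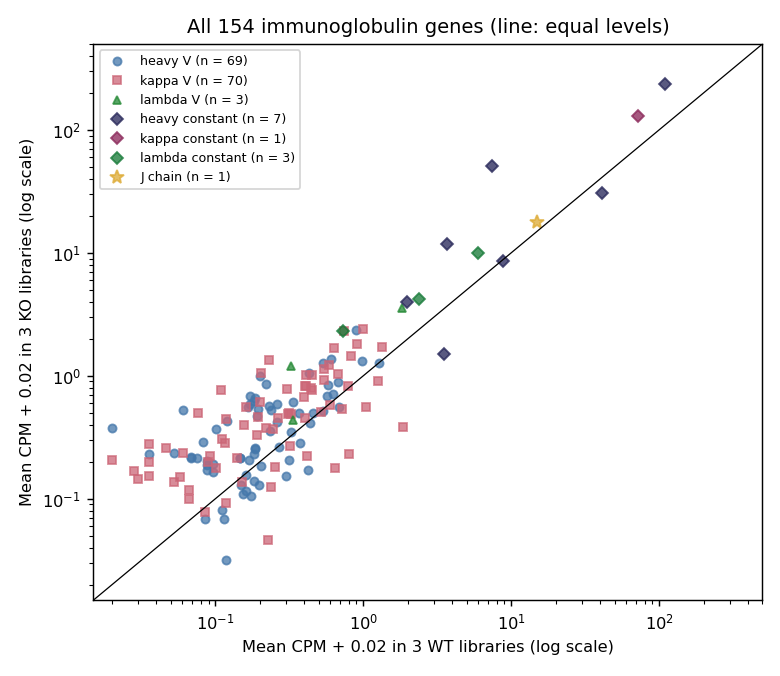
Mean CPM plus 0.02 of each of the 154 immunoglobulin genes in the 3 WT libraries (horizontal) and the 3 KO libraries (vertical), both on log scales, by gene class. The line marks equal levels, and 114 points lie above it, with Ighd the farthest above it among the constant genes.

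Among the heavy chain constant genes, the IgM and IgD genes were higher in every KO library and the IgA gene was not. Ighm (chr12:113418558-113422730, minus strand), which encodes the constant region of IgM, was at 78.0, 138 and 114 CPM in WT and 262, 253 and 195 CPM in KO libraries. Every KO value lay above every WT value. The log2 fold change was 1.11 ± 0.24 (SE), with an adjusted p of 0.249 in the edgeR test and 0.00257 in DESeq2, and adjusted p ran from 0.00257 to 0.698 over the alternatives tried.

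Ighd (chr12:113406604-113416324, minus strand), which encodes the constant region of IgD and marks mature B cells that have not switched class, had the largest difference among the 12 constant genes and Jchain. Its level was 3.26, 6.81 and 12.3 CPM in WT and 56.5, 49.0 and 46.5 CPM in KO libraries. The lowest KO library was well above the highest WT library, and the KO libraries lay closer to each other than the WT libraries did on a relative scale. The log2 fold change was 2.78 ± 0.42 (SE), with an adjusted p of 0.0858 in the edgeR test and 2.35e-09 in DESeq2. Over the alternatives, adjusted p ran from 8.9e-13 with library totals in place of TMM to 0.37 without KO replicate 3.

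Igha (chr12:113254830-113260236, minus strand), the constant gene of IgA, the main antibody of mucosal surfaces, was at 12.8, 81.6 and 29.6 CPM in WT and 46.5, 24.7 and 21.2 CPM in KO libraries. The KO values all lay within the WT range, and WT replicate 2 was the highest of all. The log2 fold change was -0.43 ± 0.61 (SE, adjusted p = 0.808 in the edgeR test), and it changed sign to 0.51 without WT replicate 2.

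The 4 IgG constant genes did not move together. Ighg2c (chr12:113285325-113288932), the IgG2 gene that C57BL6 mice carry in place of Ighg2a, was at 2.42, 6.46 and 2.15 CPM in WT and 14.3, 15.1 and 6.04 CPM in KO libraries. WT replicate 2 lay just above KO replicate 3, and the log2 fold change was 1.67 ± 0.50 (SE), with an adjusted p of 0.364 in the edgeR test and 0.0422 in DESeq2 and a range from 0.0011 to 0.734 over the alternatives. Leaving out 1 library gave log2 fold changes of Ighg2c from 1.41 to 2.32, the highest without WT replicate 2. Ighg2b was at 3.84, 18.9 and 3.51 CPM in WT and 9.67, 9.78 and 6.28 CPM in KO libraries, so that 2 WT libraries lay below and 1 above all KO libraries.

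Ighg1, the IgG1 gene, was at 0.563, 9.01 and 0.843 CPM in WT and 2.79, 1.21 and 0.483 CPM in KO libraries, with most of its counts in WT replicate 2. Ighg3 was at 1.98, 1.53 and 2.39 CPM in WT and 1.55, 8.57 and 1.69 CPM in KO libraries, with KO replicate 2 apart from the other 5. Both overlapped between groups. For each of Ighg1, Ighg2b and Ighg3 a single library decided the sign of the difference. Without WT replicate 2, the edgeR test called 5 of the 84 immunoglobulin genes it tested, all higher in KO (Ighm, Ighd, Ighg2b, Ighg2c and Igkc). Of all genes, 660 of 14950 tested (4.41%) were then called higher, so these 5 calls are a description.

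**Figure D2:**
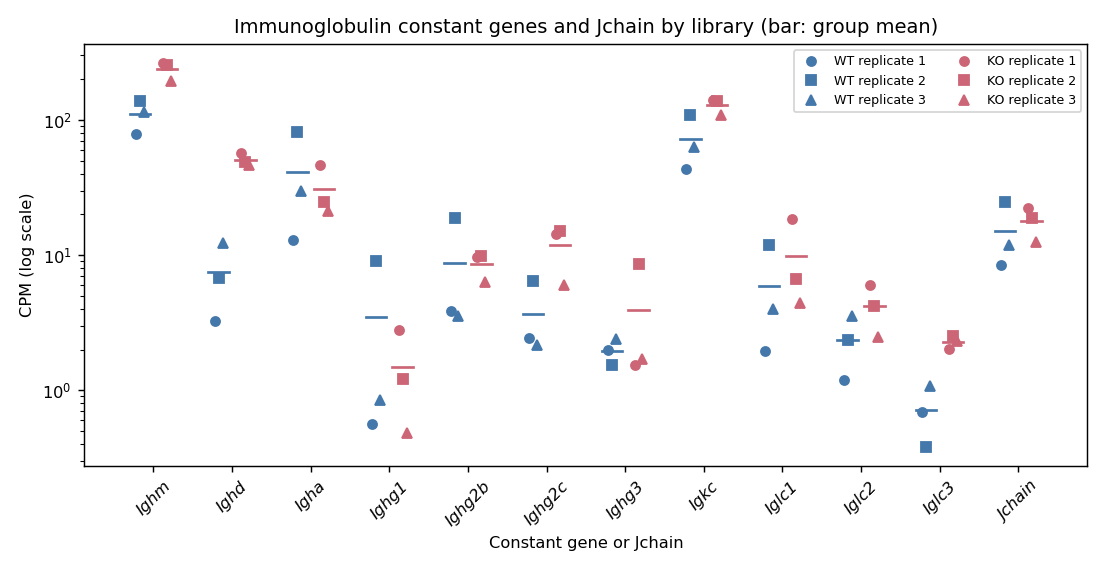
CPM on a log scale of each constant gene and Jchain, with 1 point per library (WT blue, KO red, symbol by replicate) and a bar at each group mean. Ighm, Ighd and Iglc3 have every KO point above every WT point, and WT replicate 2 is the highest point of Igha, Ighg1, Ighg2b and Jchain.

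Because all these genes share a locus and a cell type of origin, they were also compared as shares within each library, which do not depend on how much immunoglobulin RNA the library held. Ighm was the largest heavy chain constant gene in every library, at 65.8% ± 11.997 of heavy chain constant counts in WT and 69.0% ± 2.06 in KO (SD, n = 3). Ighd took 3.16%, 2.60% and 7.47% in WT and 14.4%, 13.6% and 16.8% in KO libraries, without overlap. As a log2 ratio of Ighd to Ighm, the values were -4.58, -4.33 and -3.21 in WT and -2.21, -2.37 and -2.07 in KO, a difference of 1.82.

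Igha took 12.5%, 31.1% and 18.0% of heavy chain constant counts in WT and 11.8%, 6.81% and 7.65% in KO libraries. Every KO share lay below every WT share, but KO replicate 1 and WT replicate 1 were close, with 95% Wilson intervals of 11.2% to 12.5% and 11.5% to 13.5% that overlap. The share of all switched classes, IgA and IgG together, was 21.03%, 44.9% and 23.4% in WT and 19.0%, 16.4% and 12.9% in KO. The differences of the means were -11.8 percentage points for IgA and -13.7 for all switched classes, and WT replicate 2 contributed a large part, since without it they fell to -6.46 and -6.12 percentage points.

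For each of these 3 within-library measures the exact two-sided permutation test gave p = 0.1, the smallest that 3 libraries against 3 can give, and 0.22 after Benjamini-Hochberg adjustment over the 11 measures tested in this way. No such test could therefore pass 0.05. The IgG genes together took 8.57%, 13.7% and 5.39% in WT and 7.19%, 9.59% and 5.23% in KO, which overlapped. Intervals on these shares cover counting error only.

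**Figure D3:**
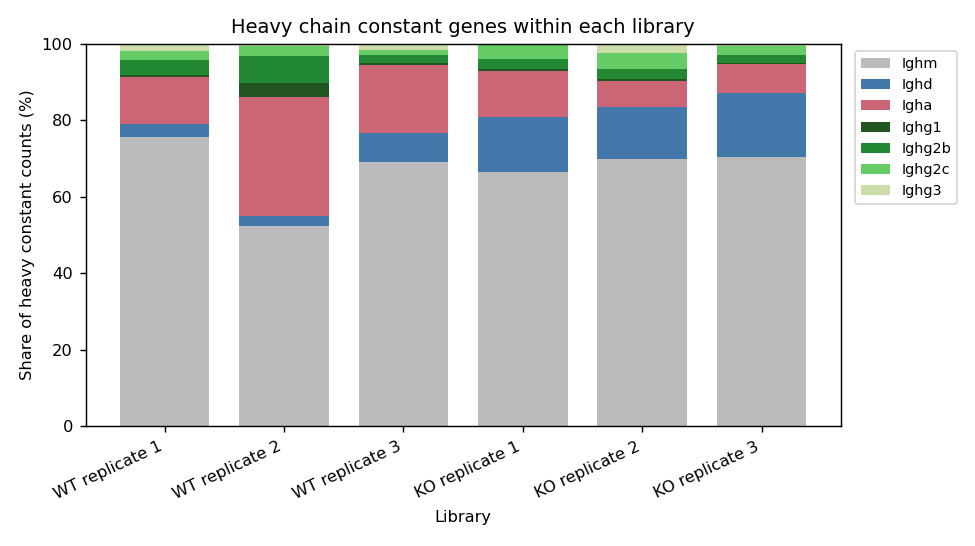
Share of heavy chain constant counts taken by each constant gene in each library, as stacked bars that sum to 100%. The Ighd segment spans 13.6% to 16.8% in the KO bars and 2.60% to 7.47% in the WT bars, and the Igha segment is widest in WT replicate 2.

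Among the light chains, kappa predominated in all 6 libraries. Igkc (chr6:70726435-70726966, plus strand), the only kappa constant gene, was at 43.0, 109 and 63.2 CPM in WT and 140, 139 and 109 CPM in KO libraries. WT replicate 2 and KO replicate 3 were level, and the other 2 WT libraries lay below all KO libraries. The log2 fold change was 0.85 ± 0.32 (SE, adjusted p = 0.454 in the edgeR test), and the gene was called only without WT replicate 2, with an adjusted p of 0.028 in a range from 0.028 to 0.776 over the alternatives. In that setting 4.41% of all genes tested were called higher in KO.

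Iglc1, the constant gene of the lambda 1 chain, was at 1.96, 11.9 and 3.98 CPM in WT and 18.6, 6.69 and 4.45 CPM in KO libraries, and Iglc2 was at 1.20, 2.35 and 3.51 CPM and 6.02, 4.19 and 2.48 CPM. Both overlapped between groups. Iglc3 was at 0.685, 0.382 and 1.08 CPM in WT and 2.02 CPM, 2.5 CPM and 2.31 CPM in KO libraries without overlap. Its log2 fold change was 1.70 ± 0.42 (SE), with an adjusted p of 0.287 in the edgeR test and 0.0344 in DESeq2 and a range from 0.0101 to 0.707 over the alternatives.

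The lambda genes took 8.20%, 11.8% and 11.95% of light chain constant counts in WT and 16.0%, 8.79% and 7.82% in KO libraries. KO replicate 1 was the highest and KO replicate 3 the lowest of all 6. The means differed by 0.23 percentage points, less than the spread between libraries (exact permutation test, two-sided, p = 0.9, adjusted p = 0.99).

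Levels were also taken per kilobase of annotated exon, a rough scale for setting genes side by side. Ranks on it depend on the annotated lengths, which were 2678 bases for Ighg2b and 1326 for Ighg2c. Igkc was the highest of the constant genes and Jchain, at 135 CPM per kilobase in WT and 243 in KO, followed by Ighm at 58.3 and 126. Igha came next in WT at 15.5 CPM per kilobase, where Ighd stood at 3.93. In KO Ighd came next at 26.7 CPM per kilobase, followed by Iglc1 at 21.8 and Igha at 11.5.

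Jchain (chr5:88519809-88527891, minus strand), which plasma cells express strongly, was at 8.45, 24.8 and 11.8 CPM in WT and 22.1, 18.7 and 12.4 CPM in KO libraries. The groups overlapped, with a log2 fold change of 0.23 ± 0.40 (SE, adjusted p = 0.839 in the edgeR test) and of 0.77 without WT replicate 2.

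The markers of the cells that make antibodies moved to different degrees with these genes. Of 18 B cell markers tested, 3 (Ms4a1, Fcrla and Cd79a) passed the edgeR test and all were higher in KO, and DESeq2 called 9, all higher. Over all genes, the edgeR test called 0.109% in either direction and DESeq2 called 0.527% higher in KO. The B cell list had a median log2 fold change of 1.57, beside 0.03 for all tested genes. Every KO library lay above every WT library for 14 of the 18 markers, against 8.35% of all genes with at least 10 counts. Their summed level was 46.9 to 63.9 CPM in WT and 166 to 174 CPM in KO libraries, and no B cell marker was at 0.

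None of the 11 plasma cell markers tested passed the edgeR test, DESeq2, limma-voom or the likelihood ratio test. At an unadjusted p under 0.05 in the edgeR test 2 were higher in KO, against 5.62% of all tested genes. The median log2 fold change of the 11 markers was 0.61. Prdm1, a regulator of plasma cell formation, was at 11.6, 6.99 and 8.80 CPM in WT and 19.3, 12.2 and 21.5 CPM in KO libraries (log2 fold change 0.95 ± 0.26 SE, adjusted p = 0.327 in the edgeR test). Irf4, another regulator of this step, was at 1.44, 2.70 and 1.69 CPM in WT and 1.29, 0.846 and 1.28 CPM in KO libraries (log2 fold change -0.77 ± 0.37 SE). Xbp1 was at 96.8, 138 and 104 CPM in WT and 86.8, 94.2 and 87.1 CPM in KO libraries (log2 fold change -0.34 ± 0.17 SE). Of the 12 genes of the list, 1 (Prdm1) had every KO library above every WT library. For 2 (Irf4 and Xbp1) every KO library lay below. Among all genes with at least 10 counts these shares were 8.35% and 7.96%. Tnfrsf17, the plasma cell receptor BCMA, had 0 to 0.405 CPM and was not tested. Many genes of this list are expressed outside plasma cells, and the most abundant, Sdc1, was at 85.8, 526 and 173 CPM in WT and 369.9, 438 and 389 CPM in KO libraries, the same order of WT libraries as the alveolar type II transcripts.

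T cell markers had a median log2 fold change of 1.12 over 7 tested genes. None was called by the edgeR test, DESeq2 or limma-voom, and 1 (Cd8a) was called higher by the likelihood ratio test (background 0.848%). At an unadjusted p under 0.05 in the edgeR test 4 were higher in KO, against 5.62% of all tested genes. The T cell markers summed to 2.55 to 4.96 CPM in WT and 6.81 to 11.3 CPM in KO libraries. Macrophage, neutrophil and erythroid markers summed to ranges that overlapped between the groups. The part of these cell types in the immunoglobulin values was not tested.

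Relative to the mean of the B cell markers, the constant genes differed in direction. On a log2 scale, Ighd was 1.44 higher in KO than in WT, Ighm was 0.29 lower, Igkc 0.48 lower, Jchain 1.09 lower and Igha 1.54 lower. Libraries of the groups overlapped for Ighm and Igha. In a comparison added after seeing the data, without WT replicate 2, the differences were 1.43 for Ighd, -0.14 for Ighm, -0.16 for Igkc, -0.70 for Jchain and -0.89 for Igha. For Igkc the log2 ratio to the B cell markers was 4.31, 5.31 and 4.39 in WT and 4.26, 4.28 and 4.03 in KO libraries (exact permutation test, two-sided, p = 0.1, adjusted p = 0.22). Relative to the plasma cell markers the sign for Igkc was the opposite, at 0.59. There, Ighd was 2.51 higher in KO, Ighm 0.79 higher, Jchain 0.01 lower and Igha 0.46 lower. Groups overlapped there for Jchain and Igha, and without WT replicate 2 the differences were 0.21 for Jchain and 0.0091 for Igha, so that both signs rested on that library, and 2.33 for Ighd.

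**Figure D4:**
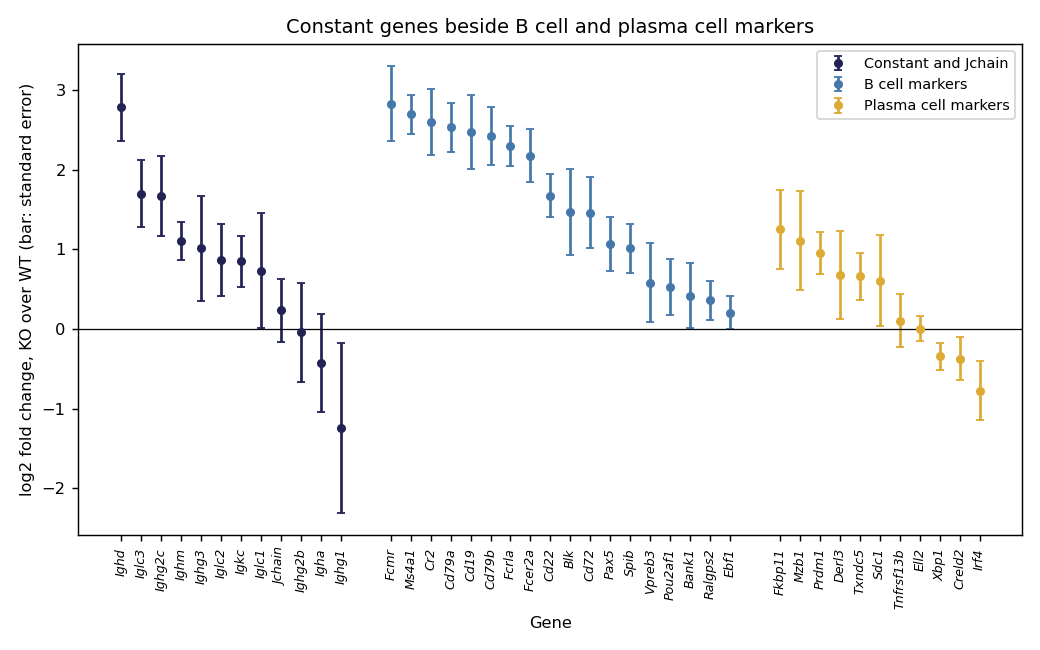
Log2 fold change of KO over WT with its standard error for each constant gene and Jchain, each B cell marker and each plasma cell marker, from the edgeR fit on 3 libraries per group. Ighd, at 2.78, lies among the highest B cell markers, and Jchain, Ighg2b, Igha and Ighg1, at 0.23, -0.04, -0.43 and -1.24, lie at the lower end.

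The genes through which antibodies are bound or carried were examined next. None of the 11 tested genes of immunoglobulin receptors and transport was called by the edgeR test, with a median log2 fold change of 0.71. At an unadjusted p under 0.05 in that test 2 were higher in KO, against 5.62% of all tested genes. Both of these, which DESeq2 and the likelihood ratio test called and of which limma-voom called Fcmr, were B cell genes of the list above. They are Fcmr, the receptor for IgM, and Fcer2a, the low-affinity IgE receptor. Fcmr was at 1.98, 1.94 and 6.65 CPM in WT and 27.4, 21.3 and 24.1 CPM in KO libraries, without overlap (log2 fold change 2.83 ± 0.47 SE, adjusted p = 0.107 in the edgeR test).

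Pigr, the epithelial receptor that carries polymeric IgA and IgM into secretions, was at 689.5, 1666 and 796 CPM in WT and 1760.4, 2329.7 and 1424 CPM in KO libraries, with WT replicate 2 inside the KO range (log2 fold change 0.81 ± 0.40 SE, adjusted p = 0.52 in the edgeR test). Fcgrt, the neonatal Fc receptor that recycles IgG in ECs, was at 16.7, 47.5 and 34.3 CPM in WT and 46.7, 59.5 and 49.6 CPM in KO libraries, where WT replicate 2 again reached the KO range (log2 fold change 0.66 ± 0.34 SE, adjusted p = 0.534 in the edgeR test). The Fc gamma receptor genes Fcgr1, Fcgr2b, Fcgr3 and Fcgr4 overlapped between the groups.

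Of 19 genes of V(D)J recombination, pre-B cells and class switching, 12 were tested and none was called by the edgeR test, DESeq2, limma-voom or the likelihood ratio test, nor did any reach an unadjusted p under 0.05 in the edgeR test, with a median log2 fold change of 0.08. Rag1 and Rag2, which encode the recombinase of developing lymphocytes, and Vpreb2 had 0 counts in all 6 libraries.

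The V segments were each counted at low levels. Mean levels over the 6 libraries ranged from 0.0547 to 1.60 CPM for heavy segments (median 0.253) and from 0.0610 to 1.67 CPM for kappa segments (median 0.361), and Iglv1 was the highest of all V segments at 2.68 CPM. A total of 87 of the 154 genes were counted in all 6 libraries. For 34 genes a single library held more than 50% of the summed CPM, and that library was KO replicate 1 for 14 of them, WT replicate 2 for 8, KO replicate 2 for 5, KO replicate 3 for 3 and each of the remaining WT libraries for 2. One segment, Ighv3-3, had 29 counts in KO replicate 2 and none in any other library.

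Of the V segments named for their level or rank, most were higher on average in KO but overlapped with WT. Iglv1 was at 0.636, 3.49 and 1.31 CPM in WT and 6.58, 2.46 and 1.59 CPM in KO libraries, in the same order of libraries as Iglc1. Igkv10-96 was at 0.759, 0.529 and 1.64 CPM in WT and 2.06, 2.24 and 2.79 CPM in KO libraries, without overlap (log2 fold change 1.32 ± 0.45 SE, adjusted p = 0.406 in the edgeR test). Ighv3-6 was at 0.612, 1.17 and 0.843 CPM in WT and 4.17, 1.84 and 0.966 CPM in KO libraries, with KO replicate 1 apart.

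A further pair of named segments separated the groups. Igkv15-103 was at 0.563, 0.705 and 0.562 CPM in WT and 2.11, 2.13 and 0.759 CPM in KO libraries (log2 fold change 1.44 ± 0.48 SE, adjusted p = 0.394 in the edgeR test). Ighv1-26 was at 0.490, 0.646 and 0.609 CPM in WT and 0.946, 2.21 and 0.862 CPM in KO libraries (log2 fold change 1.20 ± 0.48 SE, adjusted p = 0.468 in the edgeR test), and its log2 fold change was 0.61 without KO replicate 2. The WT libraries of both lay close together, and in each the KO values were uneven.

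Igkv4-55 was the named segment with the largest difference in the other direction. It was at 0.465, 4.02 and 1.03 CPM in WT and 0.215, 0.625 and 0.241 CPM in KO libraries, so that WT replicate 1 lay within the KO range. The log2 fold change was -2.33 ± 0.87 (SE, adjusted p = 0.451 in the edgeR test), and it was -1.03 without WT replicate 2, which held 137 of its counts. Igkv19-93 and Ighv1-9, at 1.05, 1.85 and 1.03 CPM and 0.465, 0.881 and 1.55 CPM in WT, were at 0.688, 0.662 and 3.73 CPM and 0.258, 1.40 and 2.24 CPM in KO libraries, each with both the lowest and the highest library in the KO group. Ighv7-3, at 0.343, 2.35 and 1.08 CPM in WT and 2.54, 0.625 and 0.586 CPM in KO libraries, also changed order from library to library.

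A pair of V segments called by DESeq2 was chosen after their values were seen. Ighv6-6 had 8, 7 and 3 counts in WT and 24, 28 and 25 counts in KO libraries, a log2 fold change of 2.38 ± 0.45 (SE, adjusted p = 0.172 in the edgeR test). Igkv3-4 had 11, 6 and 4 counts in WT and 9, 58 and 42 counts in KO libraries, a log2 fold change of 2.61 ± 0.67 (SE, adjusted p = 0.299 in the edgeR test). The level of Ighv6-6 was nearly the same in the 3 KO libraries, at 1.03, 1.03 and 0.862 CPM, whereas that of Igkv3-4 was 0.387 CPM in KO replicate 1 and 2.13 CPM in KO replicate 2.

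The segment that ranked first differed from library to library within each group. Ighv3-6 led the heavy segments in WT replicate 1 (6.01% of heavy V counts) and KO replicate 1 (11.2%), Ighv7-3 led in WT replicate 2 (8.96%), Ighv1-9 led in WT replicate 3 (9.62%) and KO replicate 3 (9.31%), and Ighv1-26 led in KO replicate 2 (7.61%). No heavy segment led in all libraries of a group. Mean shares of the leading heavy segment differed by 1.18 percentage points, within the spread (exact permutation test, two-sided, p = 0.5, adjusted p = 0.611).

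Among kappa segments, Igkv19-93 led in WT replicate 1 (6.62% of kappa V counts) and KO replicate 3 (10.5%), Igkv4-55 in WT replicate 2 (10.7%), Igkv10-96 in WT replicate 3 (8.08%), Igkv8-24 in KO replicate 1 (5.56%) and Igkv3-2 in KO replicate 2 (9.64%). The mean share of the leading kappa segment differed by 0.10 percentage points (exact permutation test, two-sided, p = 1.0). Iglv1 led the lambda segments in all 6 libraries. The segments that led a KO library could be low in the others: Igkv8-24 was at 2.32 CPM in KO replicate 1 and at 0.552 and 0.207 CPM in KO replicates 2 and 3, with 0.122 to 0.281 CPM in WT, and Igkv3-2 was at 4.12 CPM in KO replicate 2, at 1.03 and 1.79 CPM in the other KO libraries and at 0.0979, 1.59 and 0.468 CPM in WT.

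**Figure D5:**
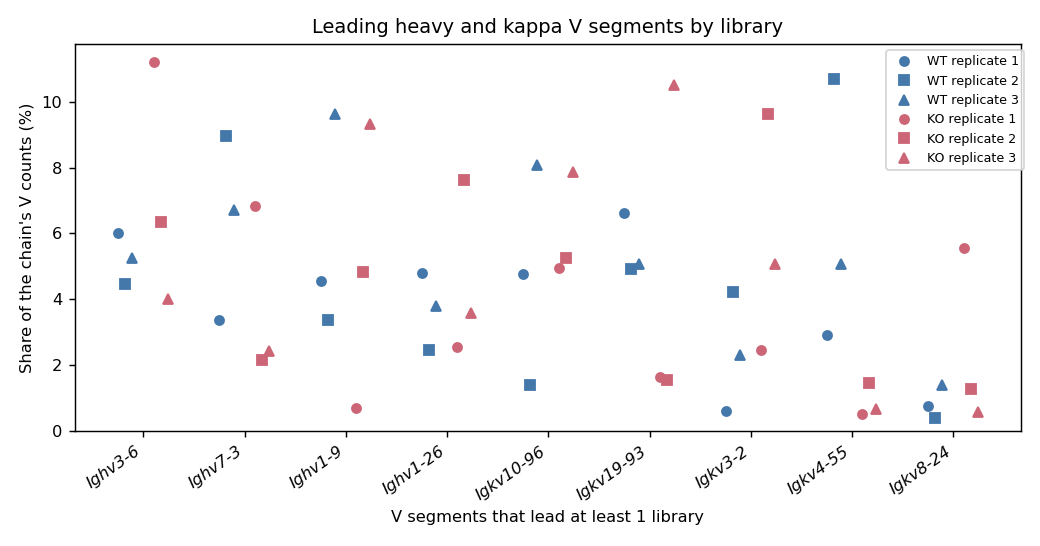
Share of each library's heavy or kappa V counts taken by the 9 heavy and kappa segments that ranked first in at least 1 library, with 1 point per library (WT blue, KO red, symbol by replicate). The highest share is 11.2%, for Ighv3-6 in KO replicate 1, and no segment ranks first in all libraries of a group.

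The number of V segments in use was compared at equal depth, because it grows with the number of counts. At 343 heavy V counts, the depth of WT replicate 3, 53.4, 53.0 and 55.0 segments were expected in WT and 55.9, 57.4 and 59.2 in KO libraries. Every KO library lay above every WT library, by 3.67 segments on average (exact permutation test, two-sided, p = 0.1, adjusted p = 0.22). At 433 kappa V counts the numbers were 55.1, 51.7 and 57.0 in WT and 60.7, 55.5 and 61.0 in KO, which overlapped (difference 4.49, exact permutation test, p = 0.2, adjusted p = 0.314).

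Shannon diversity, computed with natural logarithms on all counts, was 3.67, 3.72 and 3.61 for heavy segments in WT and 3.69, 3.78 and 3.80 in KO libraries. For kappa segments it was 3.68, 3.62 and 3.68 in WT and 3.83, 3.67 and 3.72 in KO. The groups overlapped in both (exact permutation test, two-sided, p = 0.2 and 0.3, adjusted p = 0.314 and 0.412). In all 6 libraries V usage was thus spread over more than 50 segments of each of these chains, at the depths given above.

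By V family, shares within a chain were mostly alike. Ighv1, the largest mouse family, took 47.7% ± 5.84 of heavy V counts in WT and 43.8% ± 5.75 in KO (SD, n = 3). Of 34 families, 3 (8.82%) had every KO share above every WT share and 2 (5.88%) had every KO share below. These percentages are near the 8.35% and 7.96% of all genes whose CPM did not overlap, so the values that follow are a description of the 5 families and not a result about them. Of the 5, 2 were single segments. The Igkv4 family, with 19 kept segments, took 20% (130 of 650 counts), 26.6% and 16.2% of kappa V counts in WT and 14.0%, 14.7% and 15.2% in KO libraries, and Igkv14 took 8.31%, 7.73% and 9.24% in WT and 5.45%, 2.07% and 5.25% in KO.

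The Igkv3 family had higher shares in KO, with 5.69%, 6.41% and 4.39% in WT and 8.44%, 19.7% and 10.9% in KO libraries. Iglv2 took 7.89%, 12.4% and 15% of lambda V counts in WT and 18.5%, 31.6% and 23.3% in KO. It rested on 3, 19 and 6 counts in WT and 37, 37 and 17 counts in KO libraries. The fifth, Ighv13, had 17 counts in all. Shares of 1 chain sum to 100%, so that a higher share of one family lowers the others, and no test was made of the families.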

How the data were processed

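Polyadenylated RNA of lung EC preparations from AngII-infused mice was sequenced with reads of 50 bases. The authors deposited raw counts per gene, 1 table per library. Per the file headers and the labels, uniquely aligned reads (STAR 2.5.4b) were counted with featureCounts 2.0.0 on exons of Ensembl 84 (GRCm38), with strand. Rearranged V(D)J joints are not in the reference, so V counts rest on reads within germline segments. No column came from another series (0). Symbols came from GENCODE M21 (47224 of 47729 genes).

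Counts were analysed with edgeR 4.0.16 in R 4.3.3 (filterByExpr, TMM, quasi-likelihood test, 3 WT against 3 KO), and p-values were adjusted over all 14625 genes tested at a threshold of 0.05. The standard error was derived from the log2 fold change and its F statistic. DESeq2 1.42.0 and limma 3.58.1, other scalings and filters, a replicate block and leaving out each library were alternatives. Within-library measures were compared by exact permutation tests. Steps were tested on simulated data. No 2 libraries agreed within sampling noise (lowest chi-square per degree of freedom 40.3). Members and gene lists were chosen with earlier results of these data known. Genes named were the constant genes and Jchain, the 10 V segments with the highest mean CPM, the first-ranked segments of each library and genes of the marker lists; others are marked as chosen after their values were seen. Results on some genes of the lists are not reported here.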

Additional observations from a re-analysis of the deposited data

How the results depend on the processing

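The count of immunoglobulin genes called was 0 in the edgeR test, also with RLE scaling, a minimum of 10 counts in every library or the newer quasi-likelihood settings. It was 6 with DESeq2, 6 with the likelihood ratio test, 1 with limma-voom, 3 without a filter and 4 with library totals, and from 0 to 5 when 1 library was left out. Library totals moved the median log2 fold change of all tested genes by -0.17. Of 24 named genes with a fitted value, 15 kept their direction in every alternative and 9 did not. Leaving out 1 library gave log2 fold changes from -0.87 to 0.51 for Igha, -2.04 to 1.06 for Ighg1, -0.42 to 1.18 for Ighg2b, -0.30 to 1.37 for Ighg3, -0.10 to 1.73 for Iglc1, -0.066 to 0.77 for Jchain, -0.96 to 0.73 for Igkv19-93, -1.05 to 0.83 for Ighv7-3 and -0.18 to 0.95 for Ighv1-9. The difference in lambda share ran from -2.34 to 1.75 percentage points and that in the leading kappa share from -0.87 to 1.60. With limma-voom, Ighg2b was at 0.33, Igkv19-93 at -0.023 and Ighv7-3 at 0.072. Against plasma cell markers the log2 ratio of Igkc was 0.59 higher in KO. The cause was not tested. Counting all annotated segments, an alternative chosen after seeing the data, changed no direction of the segment numbers. The kappa numbers were then 61.9, 54.3 and 62.0 in WT and 71.4, 63.0 and 65.1 in KO libraries, without overlap. At 216 kappa V counts of the kept segments, and without the pseudogene segment, the groups overlapped.

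Replicate numbers occur in both groups, and the libraries were treated as unpaired. Deviations of same-numbered libraries correlated at -0.10, 0.29 and 0.01, and those of differently numbered libraries at -0.24 to 0.26. With 3 libraries per group these values cannot exclude a pairing. With the replicate block 0 immunoglobulin genes were called, and Ighg2b (0.39) and Igkv19-93 (-0.070) changed sign. V segments of few counts and of shared sequence, and 3 libraries per group, limit these comparisons.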
